A study of Mus musculus with 21 samples.

Results

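The genes described here are the Nodal pathway genes *Nodal*, *Gdf1*, *Gdf3*, *Tdgf1*, *Foxh1*, *Lefty1*, *Lefty2*, *Cer1* and *Dand5*, which were taken by symbol from a table of 23983 genes and were all found in it (9 of 9). Nodal is a TGFβ-family ligand that works together with the related ligands Gdf1 and Gdf3 through activin receptors and an EGF-CFC co-receptor, such as the one encoded by *Tdgf1* (Cripto), and signals through Smad2 and Smad3, which the forkhead factor Foxh1 brings to DNA. It induces its own secreted inhibitors, the Lefty proteins, while Cer1 and Dand5 are secreted antagonists of the Cerberus family. In the mouse, Nodal patterns the gastrulating embryo, and later the node at the caudal end of the notochord uses Nodal, Gdf1 and Dand5 to pass left-right information to the left lateral plate.

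RNA-seq libraries were made from 6 embryonic and 3 cultured cell populations, 1 library each. The embryonic cells carried the BAC reporters T::H2B-Venus, Noto::H2B-mCherry and Foxa2::H2B-mTurquoise in F1G4 (C57BL/6N x SV129) mES cells, and were sorted from pooled embryos at E8.5 (Theiler stage 12) and E9.5 (Theiler stage 16). NotoPs, the notochord progenitors, were T+/Noto+/Foxa2+ cells of the caudal end, MPs, the mesoderm progenitors, were T+/Noto-/Foxa2- cells, also of caudal ends, and trunk notochord was T+/Noto+/Foxa2+ tissue from the trunk. The study's supplement lists Foxa2-high gates for E9.5 NotoPs and both trunk libraries, Foxa2+ for E8.5 NotoPs and T-high for MPs. Its somite ranges are wider for the trunk libraries than for NotoPs. Where gate or somite range differed, it cannot be told apart from stage or tissue. The labels name tetraploid complementation as the source of the embryos while the study's text names diploid morula aggregation, in which a host embryo contributes unlabelled cells. The cultured cells, from the same parental F1G4 line, carried TRE::Foxa2-IRES-EGFP at Rosa26, T::H2B-mCherry-T2A-irTA and Noto::H2B-mTurquoise, so that doxycycline induced *Foxa2* wherever the *T* regulatory sequences were active. NMPdiff cells (T+/Noto-, day 3), MPdiff cells (T+/Noto-, a further day with the Wnt pathway activator CHIR) and NotoPdiff cells (T+/Noto+, CHIR and doxycycline) all carried the transgene, and of these 3 only the NotoPdiff culture was given doxycycline (day 2 to day 4). Embryonic and cultured libraries were sequenced on different instruments, so that culture and sequencing run cannot be told apart.

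With 1 library per group no difference has a replicate check and no test was made. The deposited unit is FPKM (fragments per kilobase of transcript, scaled to the mapped fragments of the library), and in each library 92.5% to 95.4% of the low values of genes with 1 RefSeq transcript were whole multiples, within 0.1, of the value of a single fragment. The effective depth read from these steps ran from 385342 fragments (MP E8.5) to 2186856 (MP E9.5) in the embryo and from 20539860 to 27904109 in culture. Each level is therefore given with the fragments behind it and an exact 95% Poisson interval, and a value of 0 with the level that 3 fragments would give. Both cover counting error only. The MP E8.5 library stood apart, with 59 of 5483 genes listed at 0 although they reached 5 FPKM in each of the other 8 libraries, against 0 to 38 genes in the others. Among the embryonic libraries, the study lists the fewest sorted cells for MP E8.5, and fewer for the trunk libraries than for the rest. Error from sampling few cells is not covered by the intervals or by the limits of 0. All 8 notochord markers examined were above 0 in both NotoP libraries and in NotoPdiff. Of these, 3 were also above 0 in MP E8.5, 6 in MP E9.5 and 6 in MPdiff. *Noto* was at 0 in these 3 libraries. The markers include *T*, *Noto* and *Foxa2*, whose reporters were used to sort the embryonic cells. All 8 paraxial mesoderm markers were above 0 in the NotoP, NotoPdiff, MP and MPdiff libraries. They summed to 242 FPKM in NotoP E8.5 against 235 in MP E8.5. The sums were 174 in NotoP E9.5 against 446 in MP E9.5, and 131 in NotoPdiff against 217 in MPdiff.

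**Figure D1:**
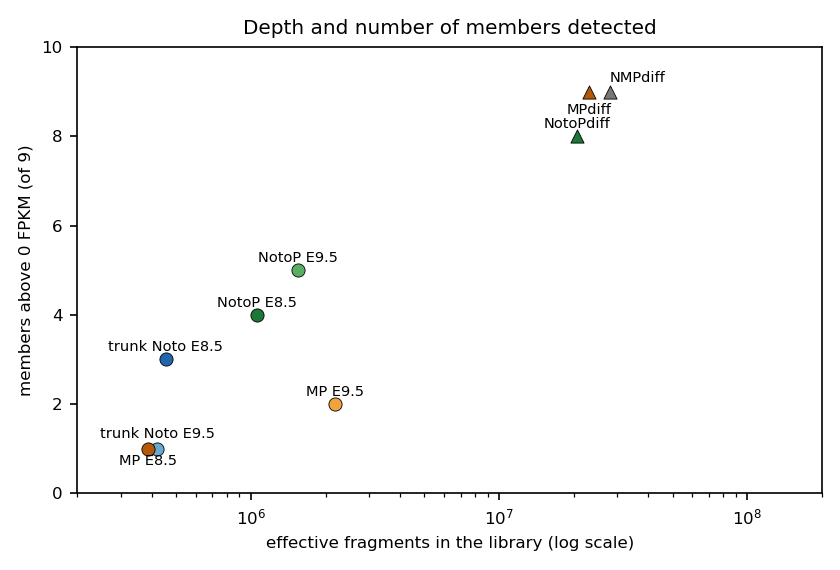
The number of the 9 genes above 0 FPKM (y axis) is plotted against the effective depth of each library in fragments (x axis, log scale), with circles for embryonic and triangles for cultured libraries. Between 1 and 5 of the genes were above 0 in the embryonic libraries and 8 or 9 in the deeper cultured ones.

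T and Foxa2 peaks were called from 1 ChIP-seq library per factor of bulk NotoPdiff cultures, giving 6875 T and 22684 Foxa2 peaks with median fold enrichments of 7.45 and 7.19 at the summit. A peak was counted for a gene when its summit lay within 100 kb of a start of the gene, in the mm10 (GRCm38) build. By this rule T was found near 7 of the 9 genes, Foxa2 near 9 and overlapping peaks of both, called shared here, near 1. Among the 19654 genes of the table with an annotated protein-coding locus, the shares were 47.7% for T, 76.3% for Foxa2 and 10.4% for shared peaks. The counts of 7 and 9 of 9 genes lie above the shares of all genes for T and Foxa2, and the difference was not tested. For shared peaks, 1 of 9 genes is near the 10.4% of all genes.

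*Nodal* (chr10:61417972-61425338, plus strand) was highest among the embryonic libraries in NotoPs at E8.5, with 8.56 FPKM (19 fragments, 95% interval 5.15 to 13.4). At E9.5 NotoPs held 1.54 FPKM (5 fragments, 0.499 to 3.59), and the trunk notochord and MP libraries of both stages were at 0. A value of 0 allowed up to 3.72 FPKM in MP E8.5, 0.655 in MP E9.5, 3.15 in trunk notochord E8.5 and 3.40 in trunk notochord E9.5. In culture, *Nodal* was at 18.1 FPKM in NMPdiff, 24.5 in NotoPdiff and 1.64 in MPdiff. Taking the low end of its interval over the limit of a single library at 0, as for all such bounds here, the E8.5 NotoP level was at least 1.39-fold higher than in E8.5 MPs and at least 1.63-fold higher than in E8.5 trunk notochord. It was 5.56-fold the E9.5 NotoP level (interval 2.01 to 19.1). In a bulk library, fewer expressing cells and less RNA per cell cannot be told apart.

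*Nodal* was the gene with the shared T and Foxa2 peak, upstream of its start in an intergenic stretch whose nearest start belongs to *Pald1*. The T summit lay 23147 bp upstream (fold enrichment 7.89, −log10 q 13.5) and the Foxa2 summit 23440 bp upstream (5.19, −log10 q 4.19), 293 bp from each other. The closest Foxa2 peak to the gene lay 13400 bp upstream (8.12, −log10 q 10.3) and overlapped no T peak. Both stretches are printed below on the strand of the gene because they are the bound sequences closest upstream of the ligand, with capitals for exact matches to the letters searched, CAGAC (Smad) in the first and AATACACA (Foxh1, here as its reverse complement) in the second.
Nodal, chr10:61394532-61394825, from the Foxa2 summit to the T summit: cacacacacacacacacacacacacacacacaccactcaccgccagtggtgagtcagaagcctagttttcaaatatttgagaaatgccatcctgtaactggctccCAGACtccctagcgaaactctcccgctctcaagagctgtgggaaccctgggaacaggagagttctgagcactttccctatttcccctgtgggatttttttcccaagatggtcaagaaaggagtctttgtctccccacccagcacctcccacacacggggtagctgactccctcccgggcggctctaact
Nodal, chr10:61404472-61404672, centred on the Foxa2 summit: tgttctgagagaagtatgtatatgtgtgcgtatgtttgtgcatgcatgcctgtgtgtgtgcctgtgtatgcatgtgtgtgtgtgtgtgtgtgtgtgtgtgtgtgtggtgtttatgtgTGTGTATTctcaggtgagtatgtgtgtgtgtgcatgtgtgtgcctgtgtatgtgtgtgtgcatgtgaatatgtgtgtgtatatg
The first begins in a CA repeat at the Foxa2 summit, where 91.1% of the 50 bp on each side are masked as repeat in the reference, and continues into unmasked sequence at the T summit (1.98% masked). The second is a TG-rich repeat with 100% of the bases around the summit masked. CAGAC occurs in 46.7% of windows of the first length centred on a Foxa2 summit and the Foxh1 letters in 10.6% of windows of the second length. The first stretch begins at its Foxa2 summit and is not centred on it.

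*Gdf1* (chr8:70329817-70331587, plus strand), the co-ligand made in the node, followed the notochord populations of the embryo and not those of the culture. NotoPs held 21.8 FPKM at E8.5 (interval 14.7 to 30.4) and 14.9 at E9.5 (10.1 to 20.8), and the trunk notochord held 7.84 (2.55 to 18.3) and then 23.9 (13.0 to 39.8). MPs were at 0 at E8.5, which allows up to 5.55 FPKM, and at 1.3 at E9.5 (4 fragments). The 3 cultured libraries held 1.23 (NMPdiff), 1.54 (NotoPdiff) and 1.21 FPKM (MPdiff). All 4 notochord libraries of the embryo were above both MP libraries and all 3 cultured libraries, and the intervals of trunk notochord E8.5 overlapped those of both MP libraries. *Gdf1* shares a transcript with *Cers1* and overlaps the end of *Upf1* on the opposite strand, and several of its values were not whole fragments, so part of the level may be divided with *Cers1*, which was at or below 2.32 FPKM in every library. Its T peak lay 4171 bp downstream of the start, in an intron of *Upf1* (6.09), and its Foxa2 peak 38145 bp downstream (11.1) with *Comp* as the nearest start.

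*Gdf3* (chr6:122605403-122610087, minus strand), the second co-ligand and a gene of pluripotent cells, was at 0 in all 6 embryonic libraries. Over these libraries together, 0 fragments allow up to 0.233 FPKM. Single libraries allow more, with 0.646 FPKM in MPs and 0.909 in NotoPs at E9.5. At E8.5 the limits were 1.33 FPKM in NotoPs, 3.11 in trunk notochord and 3.66 in MPs, and 3.36 in trunk notochord at E9.5. *Gdf3* reached 1.04 FPKM in NMPdiff (interval 0.787 to 1.32), was at 0 in NotoPdiff and had 1 fragment in MPdiff. The T peak within reach lay 45299 bp upstream with a fold enrichment of 16.5, inside the top 6.59% of T peaks, and the start nearest to it was that of *Dppa3*. The Foxa2 peaks at 66339 bp downstream and 94096 bp upstream were weaker, at 4.90 and 3.50.

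*Tdgf1* (chr9:110939603-110946158, minus strand), the EGF-CFC co-receptor, was at 0 in all 6 embryonic libraries, and 0 fragments over all of them allow up to 0.257 FPKM. Single libraries allow more, up to 4.04 FPKM in MPs at E8.5. NMPdiff cells held 120.5 FPKM (6480 fragments), the highest level of any of the 9 genes in any library, against 2.60 in NotoPdiff (interval 2.12 to 3.16) and 2.46 in MPdiff (2.02 to 2.97). The NMPdiff level was 46.3-fold that of NotoPdiff (interval 38.1 to 56.8) and 49.0-fold that of MPdiff (40.6 to 59.8). NotoPdiff and MPdiff did not differ beyond counting error, with a ratio of 1.06 (0.8 to 1.4). *Tdgf1* had no T peak within 100 kb and 5 Foxa2 peaks, none of which had *Tdgf1* as the nearest start. The strongest of them, 22692 bp downstream of the start (9.13), is shown as the most enriched peak near the gene. All of the bases around it (100%) are masked as repeat, and its capitals mark 3 matches to CAGAC.
Tdgf1, chr9:110922129-110922229, minus strand, centred on the Foxa2 summit: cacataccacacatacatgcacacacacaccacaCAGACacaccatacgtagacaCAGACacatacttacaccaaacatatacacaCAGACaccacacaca
Of the 21 distinct Foxa2 peaks near the 9 genes, 10 (47.6%) had more than 50% of the bases around the summit masked as repeat, against 39.7% of all Foxa2 peaks. For T the count was 1 of 7, against 9.39% of all T peaks.

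*Foxh1* (chr15:76668225-76669948, minus strand), the DNA-binding partner of the Smads, was at 0 in 5 of the 6 embryonic libraries and rested on 1 fragment in trunk notochord E8.5. Zero fragments allowed up to 1.41 FPKM in NotoPs at E9.5 and 1.00 FPKM in MPs at E9.5. All 3 cultured libraries were clearly above this, with 27.4 FPKM in NMPdiff, 25.7 in MPdiff and 7.09 in NotoPdiff. MPdiff and NMPdiff did not differ beyond counting error (ratio 0.936, interval 0.853 to 1.03), while MPdiff was 3.62-fold NotoPdiff (3.10 to 4.25). It had no T peak, and a single Foxa2 peak 48587 bp downstream of its start (8.63), with *Slc39a4* as the nearest start.

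*Lefty1* (chr1:180935022-180938400) and *Lefty2* (chr1:180893108-180899103), the feedback inhibitors, are related in sequence and lie on the plus strand with starts 40564 bp apart. In the embryo, *Lefty1* was above 0 only in NotoPs at E9.5, with 2.01 FPKM (5 fragments, interval 0.645 to 4.64), where *Lefty2* held 2.62 FPKM (10 fragments, 1.25 to 4.78). *Lefty2* was also found in MPs at E9.5, at 1.11 FPKM (6 fragments, 0.406 to 2.41), an interval that overlaps that of NotoPs. NotoPs at E8.5 had neither, and 0 fragments there allow up to 1.75 FPKM for *Lefty1* and 1.14 FPKM for *Lefty2*. NMPdiff cells held the most of both, 7.44 FPKM of *Lefty1* and 21.5 of *Lefty2*. NotoPdiff cells held 2.34 and 2.95 FPKM, while in MPdiff *Lefty1* was at 0.108 FPKM (4 fragments) and *Lefty2* at 2.46. NotoPdiff thus exceeded MPdiff 21.6-fold for *Lefty1* (interval 8.2 to 82.2) and 1.2-fold for *Lefty2* (0.947 to 1.52).

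Because the loci are neighbours, 3 of their peaks are counted for both genes: a weak T peak (4.72) 42269 bp upstream of *Lefty2*, a Foxa2 peak in an intron of *Lefty2* (3.72, 1520 bp downstream of its start) and a Foxa2 peak 8396 bp upstream of *Lefty1* (6.43). The last is printed because it is the bound sequence between both genes and holds a match to the T-box word TCACACCT. Further along, a match to a word bound by many forkhead factors, TGTTTGC, is followed by one to the Smad word that was searched in the other stretches as well. All of these lie on the reverse strand of the printed stretch and are in capitals.
Lefty1, chr1:180926403-180926702, plus strand, from the start of the Foxa2 peak: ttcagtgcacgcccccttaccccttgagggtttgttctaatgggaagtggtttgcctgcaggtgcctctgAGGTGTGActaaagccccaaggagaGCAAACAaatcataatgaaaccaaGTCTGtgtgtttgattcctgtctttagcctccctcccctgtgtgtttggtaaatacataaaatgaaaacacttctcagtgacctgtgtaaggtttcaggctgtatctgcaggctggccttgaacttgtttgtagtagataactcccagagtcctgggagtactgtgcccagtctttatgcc
The 8-letter T-box word occurs in 1.40% of windows of this length centred on a Foxa2 summit, the forkhead words (this one, or TGTTTAC) in 30.5% and CAGAC in 47.3%. Because the T-box match was a reason for printing the stretch, its share is a description only. The stretch is not centred on its summit, and none of the words searched occurs within 50 bp of that summit. No T peak overlaps the stretch, and the T summit nearest to the Foxa2 summit was 75787 bp away.

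*Cer1* (chr4:82881751-82885148, minus strand) is an antagonist known from anterior endoderm and from newly forming somites. It was highest in MPs at E8.5, with 20.9 FPKM (14 fragments, interval 11.4 to 35.0), followed by trunk notochord E8.5 with 7.58 (6 fragments, 2.78 to 16.5), whose interval overlaps. NotoPs at E8.5 had 1.08 FPKM (2 fragments), and all 3 libraries of E9.5 were at 0, which in MPs allows up to 0.788 FPKM. The MP level was at least 14.5-fold lower at E9.5 than at E8.5, and the E8.5 MP level was 19.3-fold that of E8.5 NotoPs (4.42 to 175). In culture *Cer1* stayed below 1 FPKM, at 0.946 in NMPdiff, 0.175 in MPdiff (7 fragments) and 0.0279 in NotoPdiff (1 fragment). The summed level of the 7 measured endoderm markers was 121.8 FPKM in trunk notochord, 46.5 in MPs and 13.9 in NotoPs at E8.5, against 44.2, 3.14 and 3.55 at E9.5, and it was 81.3 in NotoPdiff, where *Trh* alone gave 71.8, *Ttr* and *Apoa1* were at 0 and *Cer1* had 1 fragment. In the E8.5 MP library, 5 of the 7 were above 0, with *Trh* and *Gata4* at 0. The part of other cell types in the *Cer1* level was not tested.

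The *Cer1* start had the closest peak of any of the 9 genes, followed by the Foxa2 peak 1520 bp from the *Lefty2* start and the T peak 4171 bp from the *Gdf1* start. A T peak of 829 bp (fold enrichment 14.1, −log10 q 51.1, in the top 10.8% of T peaks) had its summit 151 bp upstream of the start. In the sorted NotoPdiff cells, *Cer1* rested on 1 fragment. The peak comes from the bulk, unsorted culture, for which no *Cer1* level is available. The stretch upstream of the start is printed because it contains this summit. Its capitals mark 2 matches to the forkhead word TGTTTGC, on opposite strands, and 3 to CAGAC, and neither T-box word occurs.
Cer1, chr4:82885152-82885449, minus strand, ending just upstream of the start: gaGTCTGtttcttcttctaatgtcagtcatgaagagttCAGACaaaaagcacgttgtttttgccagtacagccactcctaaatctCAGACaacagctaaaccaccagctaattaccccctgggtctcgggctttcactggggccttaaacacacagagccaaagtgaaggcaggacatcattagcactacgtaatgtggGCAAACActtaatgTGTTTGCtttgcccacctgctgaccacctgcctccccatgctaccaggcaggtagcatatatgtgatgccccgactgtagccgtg
Forkhead words occur in 28.5% of windows of this length centred on a T summit and CAGAC in 51.8%, and in 8.48% and 49.6% of all 32851 RefSeq promoter windows. A second T peak, 69695 bp downstream in an intron of *Zdhhc21*, was stronger still (19.8, rank 197 of 6875). Foxa2 peaks near *Cer1* did not overlap them, the nearest lying 12339 bp downstream (10.6).

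*Dand5* (chr8:84815405-84822823, minus strand), the Nodal antagonist of node crown cells, was found in the embryo only in NotoPs, at 9.53 FPKM at E8.5 (16 fragments, interval 5.44 to 15.5) and 5.29 at E9.5 (13 fragments, 2.81 to 9.04). The intervals overlap, and the ratio of E8.5 to E9.5 was 1.80 (0.813 to 4.07). Trunk notochord and MPs of both stages were at 0, which allows up to 4.17 and 4.5 FPKM in trunk notochord and 4.91 and 0.866 FPKM in MPs, E8.5 first. NotoPs exceeded MPs at least 3.25-fold at E9.5. At E8.5 the bound was 1.11-fold and the full 95% intervals of both libraries overlapped. In culture, NotoPdiff held 19.3 FPKM (627 fragments) against 0.905 in NMPdiff and 0.901 in MPdiff, a ratio of 21.4 to MPdiff (15.0 to 31.2). The T and Foxa2 peaks near *Dand5* lay 49787 and 23953 bp upstream, in exons of *Syce2* (5.67) and *Calr* (4.2).

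**Figure D2:**
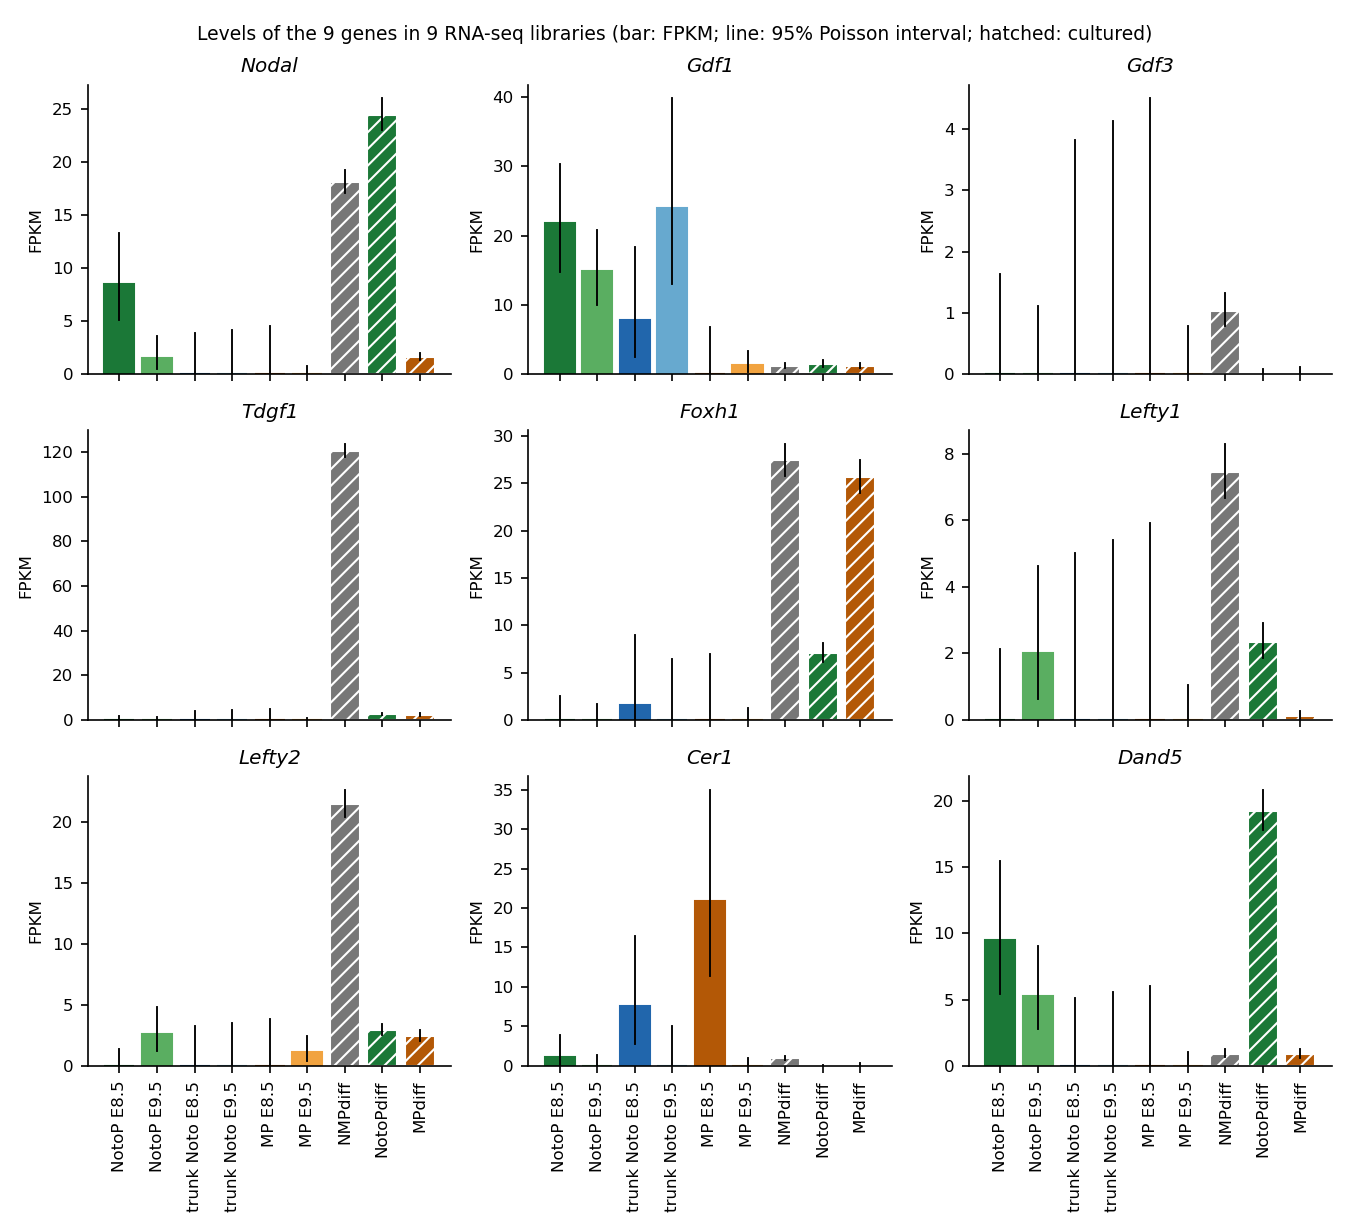
Each panel gives the FPKM (y axis) of 1 gene in the 9 libraries, as bars with the exact 95% Poisson interval of its fragments as a line, and hatched bars for cultured cells. *Dand5* was high in both NotoP libraries and in NotoPdiff, *Nodal* in NotoPs at E8.5, NMPdiff and NotoPdiff, *Gdf1* in the 4 embryonic notochord libraries, *Cer1* in MPs at E8.5, and *Tdgf1*, *Lefty1* and *Lefty2* in NMPdiff.

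To compare NotoPs with MPs, log2 ratios of FPKM + 1 were taken and a gene was called at 3-fold in each comparison alone. The study used a 3-fold change of FPKM at both stages together. At E8.5, 4 of the 9 genes were past 3-fold in either direction, against 12.8% of all genes, and 5 were at 0 in both libraries. *Gdf1* (log2 ratio 4.51), *Dand5* (3.40) and *Nodal* (3.26) were higher in NotoPs and *Cer1* was lower (−3.39). With the MP library of E9.5 in place of the shallow one of E8.5, 3 genes were past 3-fold. At E9.5, 3 of 9 were past 3-fold, all higher in NotoPs, against 3.74% of all genes. They were *Gdf1* (2.79), *Dand5* (2.65) and *Lefty1* (1.59), the last just inside the threshold of 1.58, resting on 5 fragments and lost with median-of-ratios rescaling (1.57), while *Nodal* stood just outside at 1.34. When the Poisson intervals of both libraries were also required not to overlap, 3 genes were left at E8.5 and 2 at E9.5.

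In culture the same comparison gave 4 of 9 genes past 3-fold, against 1.99% of all genes. *Dand5* (3.41), *Nodal* (3.27) and *Lefty1* (1.59) were higher in NotoPdiff than in MPdiff and *Foxh1* was lower (−1.72), and all 4 had intervals that did not overlap. *Gdf1* had a log2 ratio of 0.20 in culture. Since *Nodal*, *Dand5* and *Gdf1* were at 0 in MPs at E8.5, their ratios at that stage depend on the 1 FPKM added (with 0.1 FPKM, 6.44 for *Nodal* and 6.59 for *Dand5*, against 3.82 and 4.27 in culture), and their sizes were not compared between embryo and culture.

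**Figure D3:**
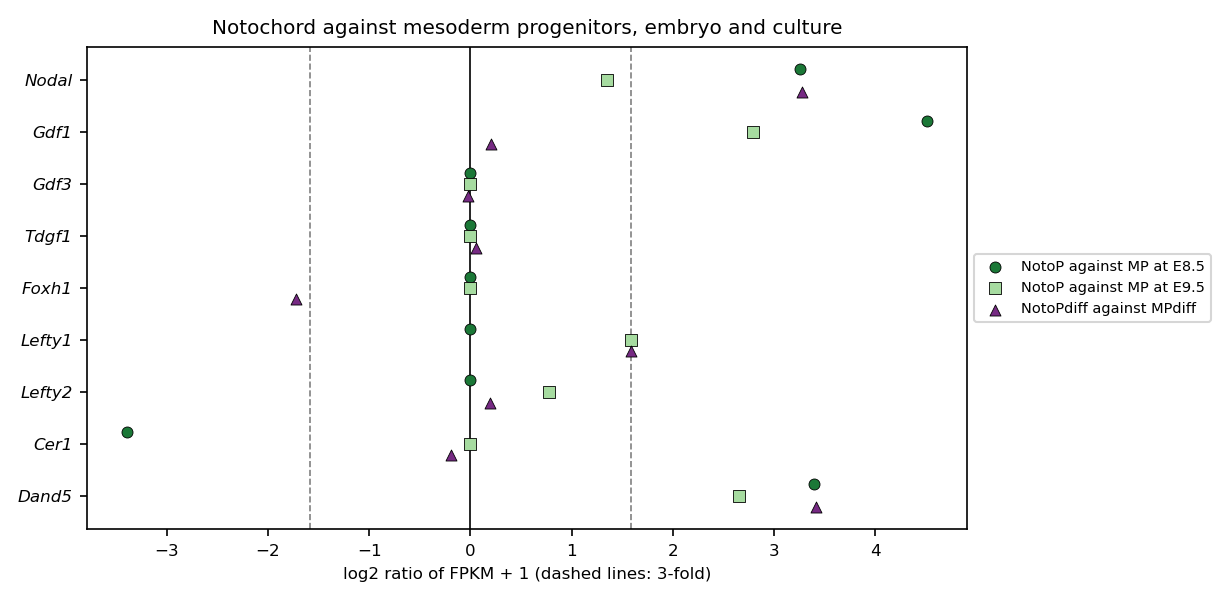
The x axis gives the log2 ratio of FPKM + 1 for each gene (y axis) in NotoP against MP at E8.5 (circles) and E9.5 (squares) and in NotoPdiff against MPdiff (triangles), with dashed lines at 3-fold. *Dand5* lies beyond 3-fold in all 3 comparisons and *Nodal* in 2 of them.

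Between the stages, 3 of 9 genes were past 3-fold in NotoPs against 4.29% of all genes, with *Nodal* lower at E9.5 (−1.91) and *Lefty1* (1.59, or 1.57 and no longer past 3-fold with rescaling) and *Lefty2* (1.85) higher. Only the *Nodal* intervals did not overlap. The Foxa2 gate of NotoPs also differed between the stages. Between the MP libraries and between the trunk libraries 1 of 9 was past 3-fold, against 9.25% and 10.1% of all genes, in both cases *Cer1*, lower at E9.5 (−4.45 and −3.10). Against NotoPs, trunk notochord gave 3 of 9 for E8.5 (8.74% of all genes), with *Cer1* higher (2.04) and *Nodal* (−3.26) and *Dand5* (−3.40) lower. For E9.5 it gave 3 of 9 (9.5%), *Dand5* (−2.65), *Lefty2* (−1.85) and *Lefty1* (−1.59), all lower and none with intervals apart. *Gdf1* was not past 3-fold in either comparison, with log2 ratios of −1.37 and 0.65.

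Within the culture series, each day 4 population was set against the day 3 NMPdiff cells, without implying descent, and 4 of 9 genes were past 3-fold in either comparison, against 2.11% of all genes for NotoPdiff and 2.38% for MPdiff. Both comparisons use the same NMPdiff library. *Tdgf1* (−5.08 in NotoPdiff and −5.13 in MPdiff) and *Lefty2* (−2.51 and −2.70) were lower in both. *Nodal* was lower in MPdiff (−2.86) and at 0.41 in NotoPdiff, *Lefty1* was lower in MPdiff (−2.93) and at −1.34 in NotoPdiff, *Foxh1* was lower in NotoPdiff (−1.81) and at −0.09 in MPdiff, and *Dand5* was higher in NotoPdiff (3.41) and at 0.00 in MPdiff. Pluripotency and epiblast markers were lower in both day 4 populations, as *Tdgf1* and *Lefty2* were and *Dand5* was not. The 8 markers summed to 382.8 FPKM in NMPdiff, 22.4 in NotoPdiff and 16.8 in MPdiff, with *Pou5f1* at 269, 10.7 and 13.1 FPKM. The part of remaining pluripotent cells in the levels of the 9 genes was not tested.

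Cultured cells were then set against the embryonic cells they model. NotoPdiff against NotoPs had 5 of 9 genes past 3-fold at each stage, against 4.89% of all genes at E8.5 and 3.97% at E9.5. *Gdf1* was lower in culture (−3.17 against E8.5 and −2.65 against E9.5), with embryonic levels 14.2-fold (8.65 to 22.7) and 9.70-fold (5.90 to 15.5) those of NotoPdiff. *Foxh1* (3.02) and *Tdgf1* (1.85) were higher in culture against both stages, by at least 4.34-fold and 2.12-fold against the deeper E9.5 library. *Lefty1* and *Lefty2* were higher against E8.5 only (1.74 and 1.98), and *Nodal* (3.33) and *Dand5* (1.69) against E9.5 only. The *Lefty1* intervals of NotoPdiff and E8.5 NotoPs overlapped. *Lefty1* and *Lefty2* of NotoPdiff lay within counting error of E9.5 NotoPs, with ratios of 1.16 (0.484 to 3.73) and 1.13 (0.600 to 2.41). *Nodal* was nearer to E8.5 NotoPs, at 2.86-fold (1.82 to 4.78) against 15.9-fold (6.81 to 49.2) for E9.5, so no single stage was the nearest for all of the genes. *Dand5* was at 2.02-fold (1.24 to 3.56) of E8.5 NotoPs and 3.65-fold (2.12 to 6.89) of E9.5 NotoPs, with overlapping intervals.

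MPdiff against MPs had 4 of 9 genes past 3-fold at E8.5 (10.7% of all genes) and 2 of 9 at E9.5 (2.67%). *Foxh1* (4.74) and *Tdgf1* (1.79) were higher in culture against both stages, *Lefty2* against E8.5 (1.79), and *Cer1* was lower against E8.5 (−4.22). Requiring intervals that do not overlap left *Foxh1* and *Cer1* at E8.5 and both genes at E9.5. Across all 9 libraries, *Foxh1* and *Tdgf1* were the 2 of 9 genes whose cultured values all lay above all 6 embryonic values, against 7.42% of all genes not overlapping in either direction. *Foxh1* spanned 7.09 to 27.4 FPKM in culture and 0 to 1.61 in the embryo, and *Tdgf1* spanned 2.46 to 120.5 against 0 throughout. For *Tdgf1*, 0 fragments allow up to 3.42, 3.70 and 4.04 FPKM in trunk notochord E8.5, trunk notochord E9.5 and MPs at E8.5, so a level like that of NotoPdiff or MPdiff was not detectable in those 3 libraries. For *Foxh1*, the NotoPdiff interval overlapped those of the same 3 libraries. All 8 pluripotency and epiblast markers were above 0 in each cultured library and 0 to 2 of them in each embryonic library.

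Of the 28 distinct peaks near the 9 genes, 6 had one of these genes as the nearest start, 2 of the 7 T peaks (*Cer1* and *Gdf1*) and 4 of the 21 Foxa2 peaks (*Nodal*, *Lefty1*, *Lefty2* and *Cer1*). Within 50 bp of the summit, none of the 7 T peaks held any of the letters searched, while TCACAC occurs in 23.4% of all T peaks, TCACACCT in 2.97%, the forkhead words in 13.1%, the Foxh1 words AATCCACA or AATACACA in 1.25% and CAGAC in 18.8%. Among the 21 Foxa2 peaks, 1 held a forkhead word (17.9% of all), 5 held TCACAC (12.3%), 6 held CAGAC (20.7%) and 1 held a Foxh1 word (6.72%). Both strands were searched.

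**Figure D4:**
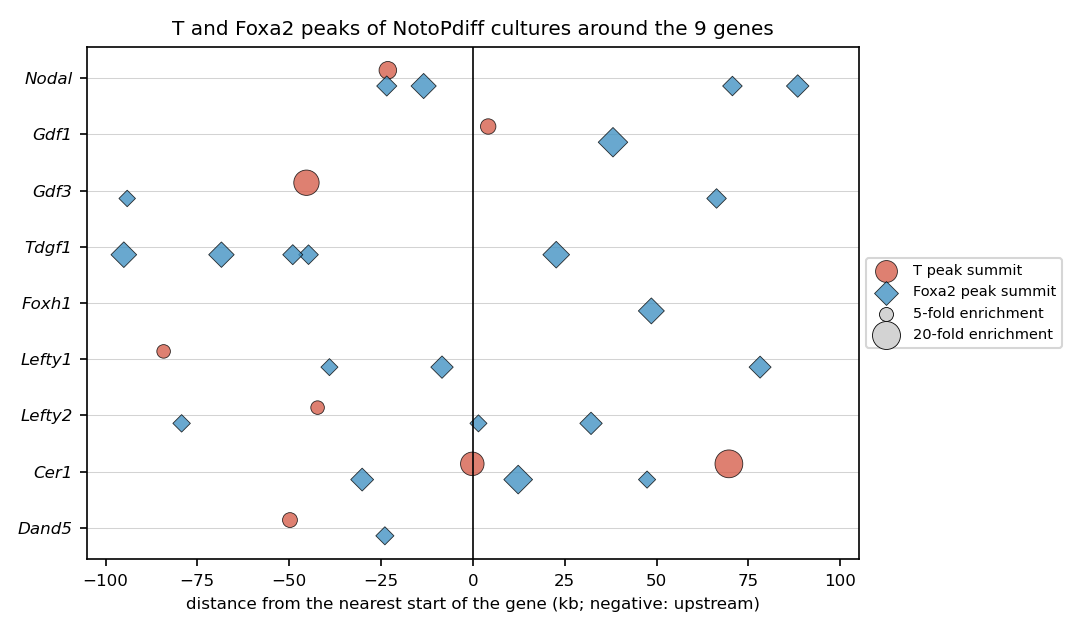
T (circles) and Foxa2 (diamonds) peak summits are placed by their distance from the nearest start of each gene (x axis, kb, negative upstream on the strand of the gene), with the area of the symbol in proportion to the fold enrichment. The T peak at the *Cer1* start is the closest to a start, and only upstream of *Nodal* do a T and a Foxa2 peak overlap.

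The other genes of the pathway were followed as 5 lists, 41 genes of which 40 were in the table (*Pkd1l1* was not). Past 3-fold in NotoP against MP at both stages in 1 direction were 6 of 40, all higher in NotoPs, against 1.55% of all genes, and in NotoPdiff against MPdiff 9 were higher and 1 lower, against 1.99% of all genes (372 higher and 106 lower). Both counts include *Noto*, which was used to sort the cells, and *Nog* and *Chrd*, which are also on the list of notochord markers. The shares are therefore set beside each other as a description. None of the 5 receptor and co-receptor genes and none of the 10 Smad and nuclear regulator genes passed either rule. The median log2 ratio of the receptor genes was 1.43 at E8.5, 0.11 at E9.5 and 0.32 in culture, and that of the Smads and regulators was 0.13, 0.23 and 0.03. Over all genes the medians were 0.00. The second EGF-CFC gene, *Cfc1*, is named here because its values were seen to differ from those of *Tdgf1*: the E8.5 levels were 20.0 FPKM in NotoPs and 23.3 in the trunk, and the E9.5 levels 1.24 and 2.29, with 0 in both MP libraries, and 12.8 in NotoPdiff, 6.58 in MPdiff and 0.345 in NMPdiff.

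Of the 6 convertases and extracellular modulators, *Nog* and *Chrd*, which bind and block BMPs, and the ligand gene *Bmp7* were higher in NotoPs at both stages and in NotoPdiff. *Nog* went from 0 FPKM in MPs to 75.1 in NotoPs at E8.5, from 1.67 to 37.2 at E9.5, and stood at 40.1 in NotoPdiff against 1.83 in MPdiff. *Furin*, which cleaves the Nodal precursor, was higher in NotoPdiff (27.5 against 6.66 FPKM), with 32.6 against 7.27 at E8.5 and 16.1 against 4.69 at E9.5, the last just outside 3-fold. *Pcsk5*, another convertase, was lower in NotoPdiff (1.51 against 7.29 FPKM), with 2.08 against 18.4 at E8.5 and 2.90 against 7.48 at E9.5. The medians of this list were 1.87, 2.38 and 2.34.

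Among the 8 target genes, the homeobox gene *Mixl1* was higher in NotoPs at both stages, at 61 against 5.67 FPKM and 44.7 against 4.00, and at 55.3 against 26.8 in culture. *Sox17*, an endoderm regulator, was higher in NotoPdiff (7.46 against 0.545 FPKM), with 3.58 in NotoPs and 5.37 in MPs at E8.5 and 0 in both at E9.5. The medians of the target list were 0.00 at both stages and 0.22 in culture. Of the 11 measured genes of left-right cilia and flow, *Noto* and *Bicc1* were higher in NotoPs at both stages and in NotoPdiff, but *Noto* was used to sort the cells and is no finding. *Bicc1*, an RNA-binding protein of the node, had 159 FPKM against 0 in MPs at E8.5, 54.2 against 5.16 at E9.5, and 106 in NotoPdiff against 8.99 in MPdiff. *Foxj1*, the regulator of motile cilia, and *Dnah5*, a dynein heavy chain, were higher in NotoPdiff (10.9 against 0 and 4.08 against 0.0779 FPKM) and in NotoPs had 4.76 and 1.93 FPKM at the earlier stage, then 0 and 0.165. The medians of this list were 1.78, 0.21 and 0.74.

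**Figure D5:**
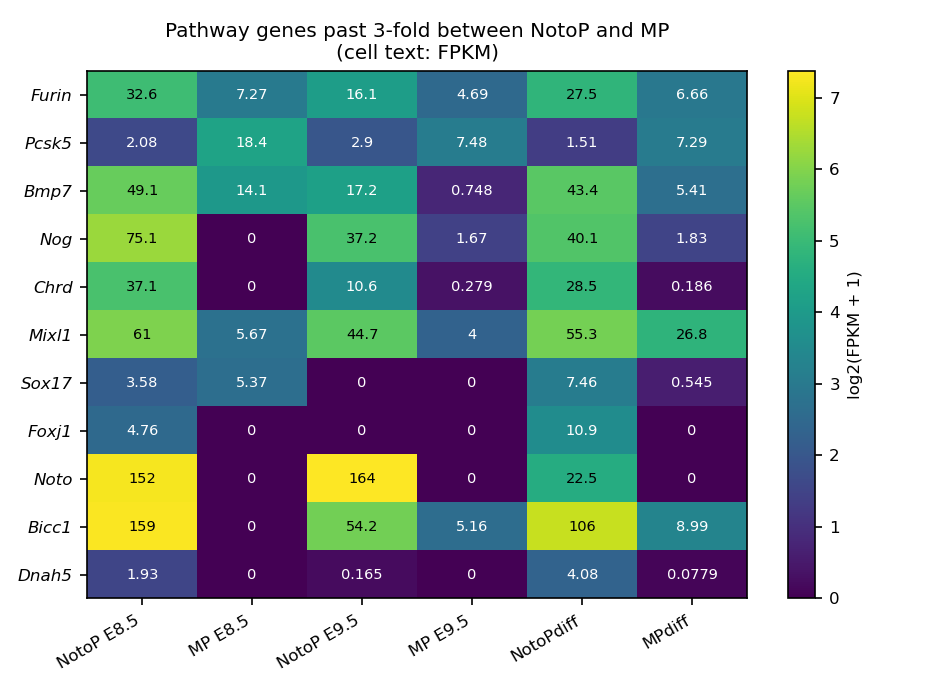
Colour gives log2(FPKM + 1) and the cell text the FPKM of the 11 listed pathway genes (rows) that were past 3-fold between NotoPs and MPs at both stages or between NotoPdiff and MPdiff, in 6 libraries (columns). *Nog*, *Chrd*, *Bmp7* and *Bicc1* were higher in the notochord column of each pair, and *Pcsk5* was lower.

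The profile of each gene over the 9 libraries was also compared with those of the 10942 genes that reached 5 FPKM in at least 1 library, by Pearson correlation of log2(FPKM + 1), as a description over 9 points that differ in depth and origin. Nearest to *Nodal* were *Cpxm2* (0.98), *Acta1* (0.95) and *Trim67* (0.94), and nearest to *Dand5* were *Aim1* (0.97), *1700001L05Rik* (0.93) and *Man2a1* (0.92). *Tdgf1* was closest to *Gsc* (1.00), a target list gene, *Dppa4* (0.99), a pluripotency list gene, and *Chac1* (0.99). For *Gdf1* the genes were *4930555G01Rik* (0.98), *Ubl7* (0.96) and *Gm10046* (0.96), and for *Cer1* they were *Apob* (0.96), *Itgal* (0.95) and *Myocd* (0.95). *Foxh1* was nearest to *Tex15* (0.97), *Zfp365* (0.97) and *Snord57* (0.97), *Lefty1* to *Tmem254c* (0.97), *M1ap* (0.96) and *Ptpn3* (0.96), and *Lefty2* to *1110007C09Rik* (0.97), *Jade2* (0.97) and *M1ap* (0.95). *Gdf3* did not reach 5 FPKM in any library and was not compared.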

How the data were processed

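The authors trimmed the RNA-seq reads, aligned them to mm10 with TopHat2 2.1.1, Bowtie 1.2.2 and RefSeq gene models, removed PCR duplicates by unique molecular identifiers and deposited FPKM values from Cufflinks 2.2.1 (with multi-read and bias correction and no effective-length correction), in 9 columns that were all used (0 left out). ChIP-seq fragments were aligned by the authors with Bowtie 1.3.1, and peaks were called per library with MACS3 3.0.0b1 with 0.1 as the q-value cutoff. Each peak in the deposited lists has its position, a score, a fold enrichment (a ratio) at the summit, p-value and q-value as −log10, and the place of the summit. The score and the p-value were not used. A control library for the peak calls is not given in the sources used here.

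Depth was read from FPKM multiplied by RefSeq transcript length (GRCm38.p6), where low values of 14604 genes with 1 transcript sit at whole multiples of 1 fragment. For *Gdf1* and *Dand5*, with 2 transcripts each, the length giving values nearest to whole numbers in the embryo was used. The depth estimate, the intervals and the limits of 0 were added after seeing the data. Of 29 values of the 9 genes above 0 and under 100 fragments, 21 were within 0.1 of a whole number. Ratios were log2 of FPKM + 1, called at 3-fold, and ratio intervals are exact binomial intervals of 2 fragment counts. Genes and starts came from GENCODE M21, sequences from the RefSeq GRCm38.p6 genome and the RefSeq promoter table, which holds 5 of the 9 genes. Scripts ran in Python 3.11.15 with scipy 1.17.1, pandas 2.3.3, numpy 2.4.6, matplotlib 3.10.9 and pysam 0.24.0, beside samtools 1.23.1, and were tested on simulated data.

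The 9 genes, the lists and the rules were chosen with earlier results of these data known. All 9 genes are named, and list genes where they pass 3-fold in NotoP against MP at both stages in 1 direction or in NotoPdiff against MPdiff. For likeness, the 3 highest correlations are given for each gene reaching 5 FPKM. The 10 ATAC-seq and histone ChIP-seq samples were not used here.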

Additional observations from a re-analysis of the deposited data

How the results depend on the processing

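The number of the 9 genes past 3-fold depended most on the pseudocount, since many levels were low. A pseudocount of 5 FPKM gave 2 genes for NotoP against MP at E8.5 (4 as reported), 1 at E9.5 (3), 0 for trunk notochord against NotoP at either stage (3 each), 0 for NotoPs between stages (3) and for trunk notochord between stages (1), 2 for NotoPdiff against MPdiff (4), 1 and 2 for NotoPdiff against NotoPs of E8.5 and E9.5 (5 each), and 2 and 1 for MPdiff against MPs of E8.5 and E9.5 (4 and 2). A pseudocount of 0.1 FPKM gave 3 genes for MPs and 3 for trunk notochord between stages (1 each), 7 for NotoPdiff against NMPdiff (4), and 7 and 4 for MPdiff against MPs of E8.5 and E9.5. A 2-fold threshold gave 5 for trunk notochord against NotoP at E8.5 and 3 each for MPs and trunk notochord between stages. Requiring Poisson intervals that do not overlap, an alternative added after seeing the data, gave 0 for trunk notochord against NotoP at E9.5, 1 for NotoPs between stages, 0 for trunk notochord between stages and 2 for MPdiff against MPs of E8.5. Median-of-ratios rescaling ended the *Lefty1* call (log2 ratio 1.57 in size) and so took 3 counts from 3 to 2, those of NotoP against MP at E9.5, trunk notochord against NotoP at E9.5 and NotoPs between stages. It left the other 11 counts as reported, and a minimum mean of 1 FPKM left each count within 1.5 times. No called log2 ratio of the 9 genes changed sign under a pseudocount of 0.1 or 5 or under rescaling.

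Within the interval between the neighbouring genes, 3 of 9 genes had a T peak (7 as reported). A shared peak was found for 2 genes within 200 kb (1 as reported) and for 0 when summits had to lie within 100 bp. With 100 bp on each side of the summit, 17 of 28 peaks held a motif (9 as reported). Of the 24 genes with the most alike profiles, 2 were kept with Spearman correlation, 1 over the 6 embryonic libraries alone and 10 with a pseudocount of 0.1, so these names rest on the setting.

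No paired analysis was possible because each group has 1 library and the labels give no replicate numbers, which leaves no spread to estimate within pairs. Whether NotoPs and MPs of a stage share embryos is not given in the sources used here. Embryonic depth limits the calls: values of 0 allow from 0.646 to 5.70 FPKM for the 9 genes in single embryonic libraries.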

Other observations

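The EGF-CFC genes differed between E8.5 NotoPs and NMPdiff cells. *Tdgf1* was at 0 in NotoPs, where 0 fragments allow up to 1.47 FPKM, and there *Cfc1* was at 20.0 FPKM, while NMPdiff cells held 120.5 FPKM of *Tdgf1* and 0.345 of *Cfc1*. The NotoPdiff library held both, at 2.60 and 12.8 FPKM. Target list genes other than *Mixl1* were highest in NMPdiff for *Eomes* (54.1 FPKM), *Lhx1* (37.0), *Otx2* (13.7) and *Gsc* (11.2), and for these 4 genes the embryonic libraries ranged from 0 to 8.64 FPKM.

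*Hhex*, a target list gene, was at 31.0 FPKM in trunk notochord E8.5 and at or below 3.35 FPKM in every other library.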
